A study of Mus musculus with 14 samples.

Results

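The genes that encode the SWI/SNF, ISWI, INO80-type and NuRD chromatin remodelers were examined in mouse G1ER cells that lack Chd7 (Chd7-/-, KO) and in wild-type (WT) G1ER cells. The set held 41 of the 21887 protein-coding genes of the GRCm38 annotation: 18 SWI/SNF genes, 8 ISWI genes, 5 genes of the INO80 and SWR1 type, 8 NuRD genes, and Hells and Atrx, the 2 other SNF2 genes. They were chosen by name as remodeler genes outside the CHD family, not by a threshold on a measured value. G1ER is a GATA1-null erythroblast line that carries an estradiol-inducible GATA1 and grows in EPO and SCF. ChIP-seq peak lists covered GATA2, RUNX1 and the serine 2 phosphorylated RNA polymerase II (S2P) that elongates along genes. Every target had 1 list in KO and 1 in WT, made from 1 library for GATA2 and RUNX1 and standing for 2 replicates for S2P, whose combination is not stated. With 1 list on each side no difference between KO and WT could be tested: intervals given here cover counting error only, not the spread between cultures. Whether the KO cells came from 1 clone, whether cells used for ChIP had seen estradiol, and which of the 6 inputs went with which list are not given in the sources used here.

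Peaks were counted at a gene by their summits, from 5 kb before the gene to 5 kb after it. The height of a peak is given as fragments piled up at its summit, a whole number recovered from the deposited fold enrichment and p-value. The highest summit had 282 fragments in KO and 286 in WT, the same for GATA2 and RUNX1. Whether this is a ceiling that draws the tallest KO and WT summits together was not tested. The KO lists were the longer ones, with 80611 GATA2 peaks in KO and 68199 in WT, and 35281 RUNX1 peaks in KO and 28952 in WT. The erythroblast label was checked on S2P: 7 of 8 erythroid genes carried S2P in each genotype, with a median of 64.8% of their length under peaks in KO and 64.5% in WT, and Slc4a1 carried none. Of 12 genes that mark T cells, B cells, neurons or liver, 1 was above 0 in each genotype, at no more than 0.037% of its length in KO and 0.045% in WT. Chd7 itself had no S2P peak in either genotype, so the S2P lists do not check its loss.

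Chromatin remodelers use the energy of ATP to slide, evict or exchange nucleosomes. SWI/SNF complexes (BAF and PBAF) are built round SMARCA4 or SMARCA2 and open chromatin at enhancers and promoters; ISWI complexes, with SMARCA5 or SMARCA1, space nucleosomes; INO80 and SWR1-type complexes exchange the histone variant H2A.Z; NuRD couples remodeling to the histone deacetylases HDAC1 and HDAC2. In blood cells, SMARCA4 and NuRD work with GATA factors at globin and other erythroid genes. CHD7 is a remodeler of the CHD family that binds enhancers, and the genes of that family were left out of the set.

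The promoters come first, since most of these genes had a RUNX1 summit there. RefSeq promoter windows (GRCm38.p6, 250 bases before to 50 bases after a transcript start) were available for 35 of the 41 genes, 39 windows in all. A RUNX1 summit fell in 22 of the 39 windows in KO and in 18 in WT, against 21.7% of all 32851 windows in KO and 20% in WT, and 17 windows held one in both. A GATA2 summit fell in 3 windows in KO and in 2 in WT, against 2.95% of all windows in KO and 2.55% in WT. TGTGGT, the core of the RUNX consensus, was searched on both strands and occurred in 5 of the 39 windows and in 16.8% of all windows. Of the windows with a RUNX1 summit, 3 held TGTGGT in KO and the same number in WT, namely those of Hdac2, Gatad2b and Brd7, and the share among all windows with a RUNX1 summit was 12.5% in KO and 12.8% in WT. Its CpG-containing variant TGCGGT, added to the search after the first result was seen, occurred in 3 windows (Brd7, Gatad2a and Pbrm1; 6.45% of all windows), each with a RUNX1 summit in both genotypes, and in 11.4% in KO and 11.5% in WT of all windows with a RUNX1 summit. AGATAA, 1 form of the motif that GATA factors recognise, occurred in 1 window and in 11.2% of all windows. That window is a downstream start of Gatad2b where KO alone had a GATA2 summit of 20 fragments. Other forms of the GATA motif were not searched, so a window without AGATAA can still hold one. The windows were rich in G and C, with a median of 65.7% against 52.7% over all windows, and held a median of 30 CpG dinucleotides against 7.

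The windows of Hdac2, Gatad2b and Brd7 are printed because they hold both a RUNX1 summit and TGTGGT, that of Srcap as an example of GATA2 and RUNX1 summits together, which the window of Arid1a also held, and those of Hells and Atrx because these genes had RUNX1 peaks in KO alone. The windows of Baz2a, Dpf2 and Mta1 also held a RUNX1 summit in KO alone, but these genes had other RUNX1 peaks in WT. All 6 run from 5′ to 3′ on the strand of the gene and are RefSeq sequence of GRCm38.p6. Capitals mark TGTGGT or TGCGGT, read on either strand, so that their reverse complements are in capitals too, and windows without capitals held none of the 3 motifs searched. A match or its absence describes these letters alone.
Hdac2 promoter, chr10:36974294-36974593, plus strand: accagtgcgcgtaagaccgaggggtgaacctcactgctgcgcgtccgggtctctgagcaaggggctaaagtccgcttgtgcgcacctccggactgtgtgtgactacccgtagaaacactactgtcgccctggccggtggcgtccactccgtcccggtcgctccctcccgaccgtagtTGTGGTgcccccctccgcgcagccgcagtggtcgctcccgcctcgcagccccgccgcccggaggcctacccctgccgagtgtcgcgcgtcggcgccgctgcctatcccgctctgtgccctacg
Gatad2b promoter, chr3:90292931-90293230, plus strand: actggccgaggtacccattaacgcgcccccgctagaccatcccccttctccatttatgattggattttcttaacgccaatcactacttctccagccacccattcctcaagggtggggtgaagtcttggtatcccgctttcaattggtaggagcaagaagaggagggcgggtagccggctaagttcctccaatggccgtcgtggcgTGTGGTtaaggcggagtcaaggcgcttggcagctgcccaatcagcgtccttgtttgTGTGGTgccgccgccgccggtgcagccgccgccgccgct
Brd7 promoter, chr8:88362123-88362422, minus strand: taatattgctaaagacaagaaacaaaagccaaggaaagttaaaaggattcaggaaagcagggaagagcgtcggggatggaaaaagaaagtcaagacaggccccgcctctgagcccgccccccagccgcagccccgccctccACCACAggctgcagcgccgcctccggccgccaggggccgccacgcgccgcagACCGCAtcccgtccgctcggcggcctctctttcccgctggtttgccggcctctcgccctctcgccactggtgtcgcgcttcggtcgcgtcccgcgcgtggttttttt
Srcap promoter, chr7:127511733-127512032, plus strand: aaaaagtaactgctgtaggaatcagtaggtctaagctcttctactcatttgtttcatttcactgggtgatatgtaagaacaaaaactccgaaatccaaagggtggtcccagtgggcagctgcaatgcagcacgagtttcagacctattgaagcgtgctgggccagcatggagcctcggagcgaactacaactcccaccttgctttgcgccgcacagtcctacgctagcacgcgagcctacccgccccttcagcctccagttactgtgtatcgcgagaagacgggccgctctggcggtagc
Hells promoter, chr19:38930740-38931039, plus strand: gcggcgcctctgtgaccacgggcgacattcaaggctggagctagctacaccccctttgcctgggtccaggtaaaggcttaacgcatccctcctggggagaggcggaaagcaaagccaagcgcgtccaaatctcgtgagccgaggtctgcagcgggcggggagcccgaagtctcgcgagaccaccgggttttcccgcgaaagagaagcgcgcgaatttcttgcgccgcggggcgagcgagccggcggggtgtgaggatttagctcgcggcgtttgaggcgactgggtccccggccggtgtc
Atrx promoter, chrX:105929323-105929622, minus strand: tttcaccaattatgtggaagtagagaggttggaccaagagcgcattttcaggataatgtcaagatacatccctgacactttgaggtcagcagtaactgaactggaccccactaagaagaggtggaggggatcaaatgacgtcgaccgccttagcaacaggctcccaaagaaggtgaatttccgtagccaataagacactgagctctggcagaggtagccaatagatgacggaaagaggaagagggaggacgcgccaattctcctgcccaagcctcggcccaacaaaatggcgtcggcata

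In the Hdac2 window the RUNX1 summit lay 144 bp before the start with 221 fragments in KO and 149 bp before it with 201 fragments in WT. The Gatad2b summit lay 103 bp before the start with 198 fragments in KO and 89 bp before it with 192 in WT. Brd7 had 42 fragments 12 bp before its start in KO and 25 fragments 17 bp before it in WT. The summits of Hdac2 and Gatad2b were of similar height in the 2 genotypes. In the Srcap window GATA2 had 121 fragments in KO and 122 in WT, and RUNX1 had 82 fragments in KO and 74 in WT, all within 39 bp after the start. RUNX1 reached 29 fragments 42 bp before the Hells start and 30 fragments 89 bp before the Atrx start in KO, and WT had no RUNX1 peak anywhere in either gene or its flanks.

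RUNX1 summits lay at the starts of most of these genes, and GATA2 summits at the starts of few. A RUNX1 summit lay within 1 kb of a start in 37 of the 41 genes in KO and in 31 in WT, against 41.9% of all protein-coding genes in KO and 38.1% in WT. Among the 3258 genes with at least 50% of their length under S2P in both genotypes the shares were 90.8% in KO and 84.9% in WT. The share of the remodeler genes was close to this in KO (90.2%) and lower in WT (75.6%). Starts here are those of the promoter windows and the 5′ end of the gene, or either end for the 6 genes without a strand in the table (Arid2, Hdac1, Smarce1, Mta3, Rsf1 and Baz1a). GATA2 lay within 1 kb of a start in 11 genes in KO and 12 in WT, against 19% of all genes in KO and 16.4% in WT. With the KO list cut to the WT length it was 9 genes in KO (17.4% of all genes). The 10 genes with GATA2 at a start in both were Smarca4, Arid1a, Brd7, Smarca5, Baz1b, Baz2b, Srcap, Hells, Atrx and Gatad2b, beside Arid2 in KO alone (4.4% of all genes) and Brd9 and Baz1a in WT alone (1.8% of all genes). Of the RUNX1 peaks assigned to the 41 genes, 63 of 172 in KO (36.6%, 95% exact binomial interval 29.4 to 44.3) and 43 of 121 in WT (35.5%, 27.0 to 44.8) lay within 1 kb of a start, against 32.2% of all RUNX1 peaks in KO and 31.6% in WT. For GATA2 it was 15 of 309 peaks in KO (4.85%) and 13 of 247 in WT (5.26%), against 5.88% of all GATA2 peaks in KO and 5.83% in WT.

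**Figure D1:**
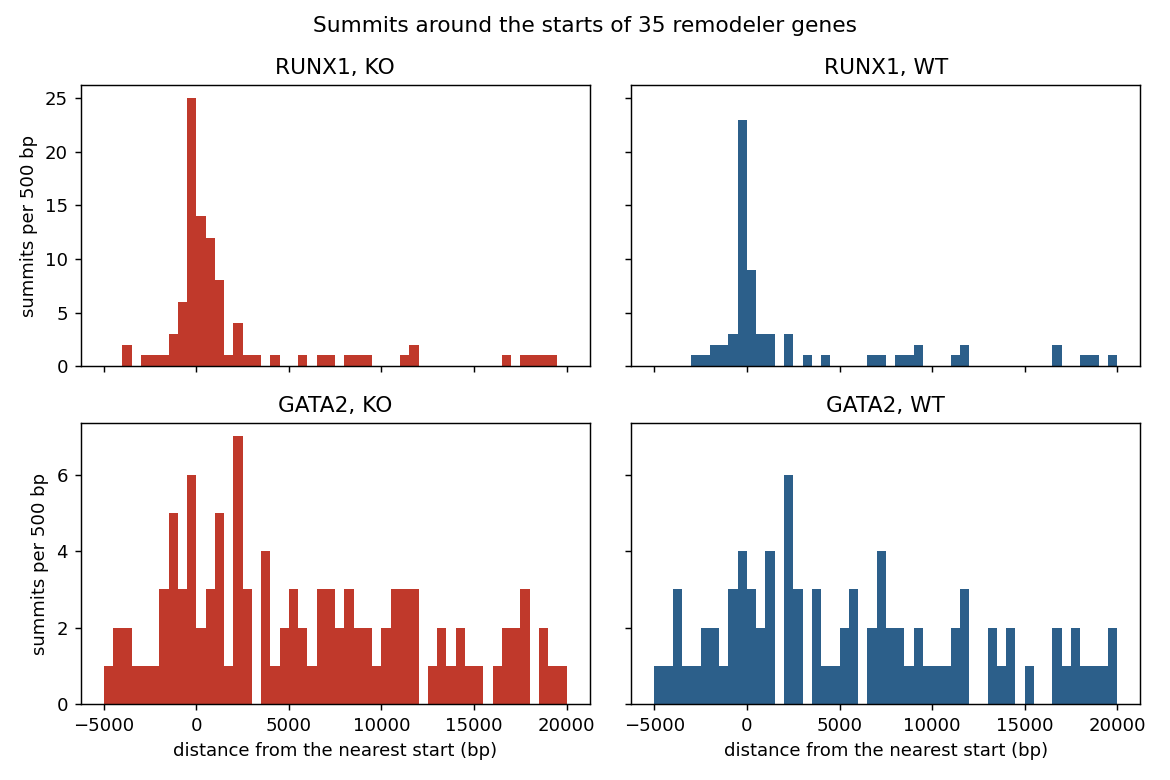
Number of RUNX1 (top) and GATA2 (bottom) summits per 500 bp by distance from the nearest start, in bp in the direction of transcription, for the 35 remodeler genes with a strand, KO on the left and WT on the right. RUNX1 summits pile up at the start in both genotypes, whereas GATA2 summits spread over the first 20 kb and beyond the plotted range.

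In 6 genes RUNX1 stood within 1 kb of a start in KO alone (4.59% of all genes, and 6.41% of those covered by S2P in both genotypes): Smarcb1, Dpf2, Hells, Atrx, Mta1 and Mta3. No gene of the set showed it in WT alone (0.768% of all genes). Smarcb1, a core SWI/SNF subunit, had 47 fragments (95% Poisson interval 34.5 to 62.5) 503 bp after its start in KO. Dpf2, a histone-reading BAF subunit, had 35 fragments 13 bp before its start in KO. Hells, an SNF2 factor needed for DNA methylation, had its 29 fragments (19.4 to 41.6) in KO, and Atrx, which helps deposit histone H3.3 at repeats, had 3 KO peaks near its start, of 30, 15 and 11 fragments. Mta1, a scaffold of NuRD, had 35 and 27 fragments 187 bp before and 680 bp after its start in KO, and its paralog Mta3 had 30 and 19 fragments before the lower of its ends. All of these were below the median of 49 fragments of the RUNX1 peaks at remodeler genes that KO shared with WT. With the KO list cut to its strongest 28952 peaks, the length of the WT list, 5 of the 6 remained (3.3% of all genes) and Mta3 did not. No RUNX1 summit lay near a start of Smarcc2, Smarcd3, Smarca1 or Baz1a in either genotype.

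RUNX1 peaks lay at 39 of the 41 genes in KO and at 37 in WT, against 52.7% of all protein-coding genes in KO and 50.1% in WT, and no gene had them in WT alone (1.34% of all genes). GATA2 peaks lay at 36 genes in KO and at 36 in WT, against 61% of all genes in KO and 56.6% in WT. The remodeler genes were long, with a median of 40209 bp against 17169 bp over all genes, and 77.0% of genes of at least 20 kb had a GATA2 peak in KO and 72.7% in WT. Per 100 kb of gene and flanks, the set held 9.09 GATA2 peaks in KO and 7.26 in WT, against 4.72 in KO and 3.98 in WT over all genes. It held 5.06 RUNX1 peaks per 100 kb in KO and 3.56 in WT, against 2.74 in KO and 2.21 in WT over all genes. Genes covered by S2P in both genotypes had higher densities than the set, of 12.2 GATA2 and 10.1 RUNX1 peaks per 100 kb in KO and 10.0 GATA2 and 7.75 RUNX1 peaks in WT.

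In all, 309 GATA2 peaks in KO and 247 in WT fell at the 41 genes, a ratio of 1.25 against 1.19 over all genes. More GATA2 peaks in KO were found at 25 genes (30.9% of all genes), more in WT at 3 (Phf10, Ruvbl1 and Brd9; 10.9% of all genes), and equal numbers at 13. RUNX1 had 172 peaks in KO and 121 in WT, a ratio of 1.42 against 1.24 over all genes. More RUNX1 peaks in KO were found at 20 genes (23.8% of all genes), more in WT at 3 (Smarca4, Arid2 and Brd9; 6.85% of all genes), and equal numbers at 18. The shares of the set with more peaks in KO were 61.0% for GATA2 and 48.8% for RUNX1. Among genes covered by S2P in both genotypes they were 46.0% for GATA2 and 48.3% for RUNX1. Among genes of at least 20 kb they were 43.3% for GATA2 and 29.6% for RUNX1. All these counts also hold the difference in list length. With the KO lists cut to the length of the WT lists, 265 GATA2 peaks remained in KO against 247 in WT, a ratio of 1.07, and 132 RUNX1 peaks in KO against 121 in WT, a ratio of 1.09. At equal lengths, more RUNX1 peaks in KO were found at 15 genes (14% of all genes), more in WT at 8 (11.8%) and equal numbers at 18. At equal lengths, more GATA2 peaks in KO were found at 17 genes (21% of all genes), more in WT at 8 (17.5%) and equal numbers at 16. Genes with RUNX1 counts at least 3 apart at equal lengths were Baz1a (6 peaks in KO, 3 in WT), Phf10 (6 in KO, 3 in WT), Bptf (4 in KO, 1 in WT), Mta1 (5 in KO, 2 in WT) and, in the other direction, Arid1a (5 in KO, 8 in WT).

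**Figure D2:**
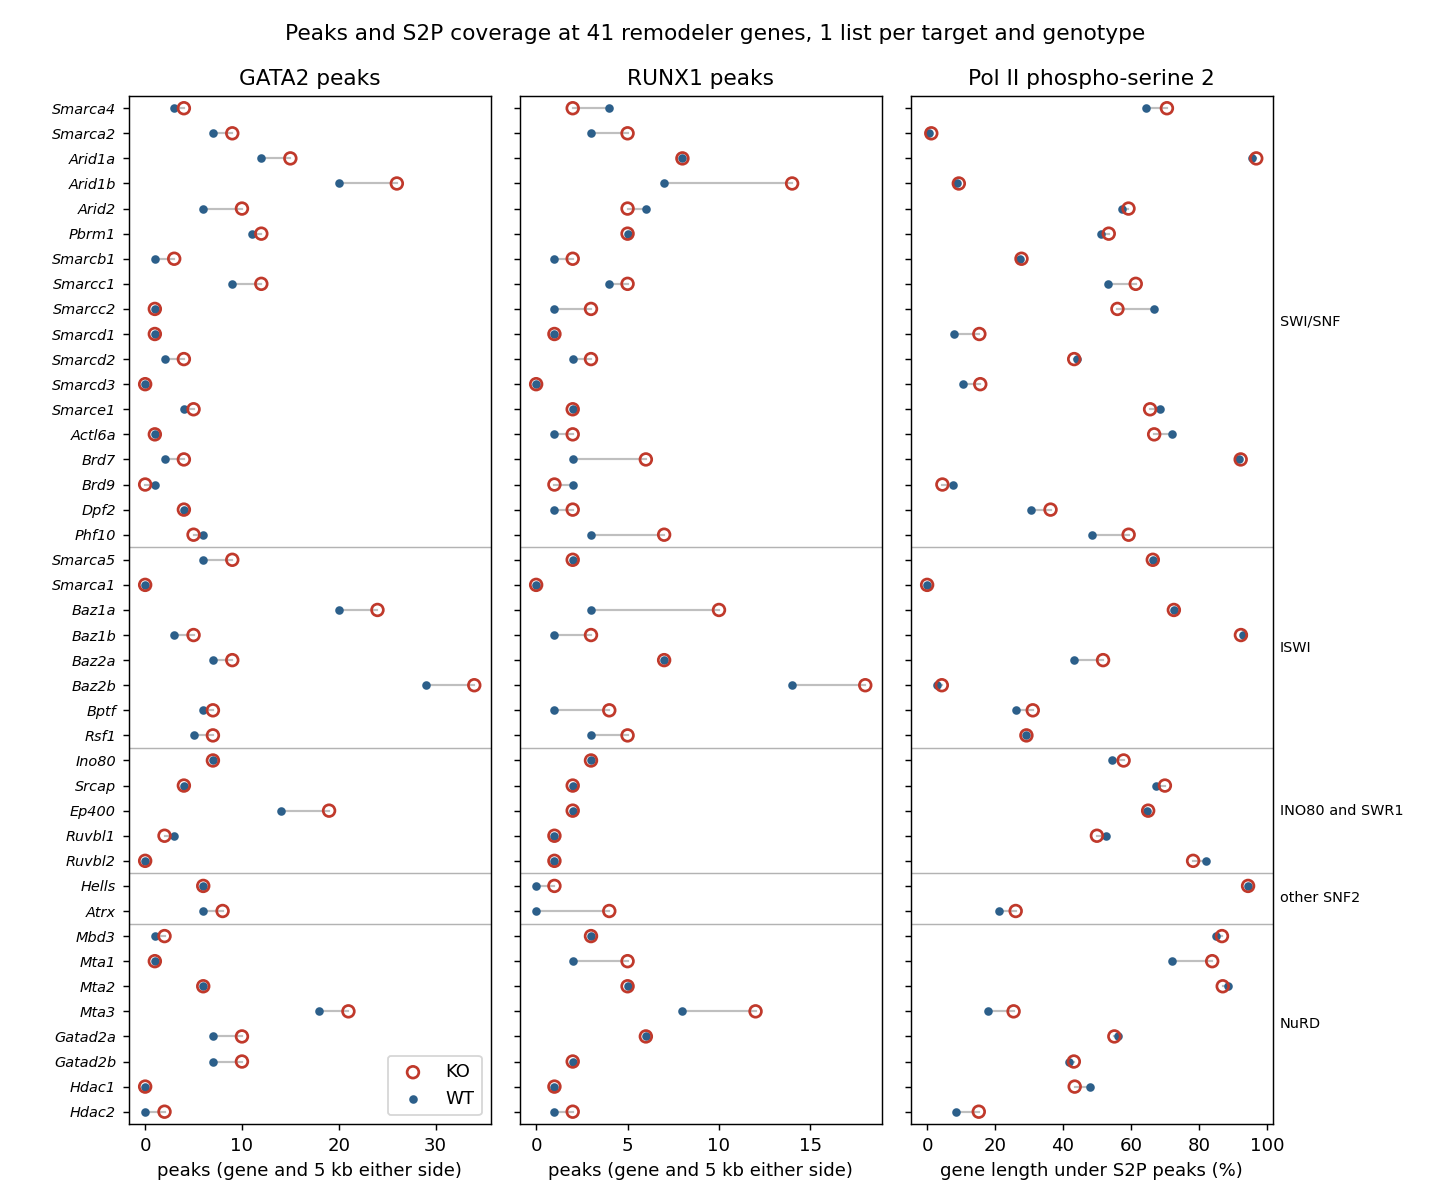
Peaks of GATA2 (left) and RUNX1 (middle) per gene with 5 kb on either side, and percent of gene length under S2P peaks (right), for each of the 41 genes in KO (open red circles) and WT (blue dots), grouped by complex. Peak numbers range up to 34 in KO and 29 in WT (GATA2 at Baz2b), and most S2P values of a gene lie close together in the 2 genotypes.

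Among the SWI/SNF genes, the ATPase genes Smarca4 and Smarca2 were not alike. Smarca4, the main catalytic subunit of BAF (chr9:21616106-21704230), had 4 GATA2 peaks in KO and 3 in WT, 2 RUNX1 peaks in KO and 4 in WT, and 70.6% of its length under S2P in KO and 64.5% in WT. Its promoter held both factors: the GATA2 summit 251 bp before the start had 85 fragments in KO and 63 in WT, and the RUNX1 summit beside it had 78 fragments in KO and 79 in WT. Smarca2, its alternative ATPase (chr19:26605073-26778321), had 9 GATA2 peaks in KO and 7 in WT and 5 RUNX1 peaks in KO and 3 in WT, but only 1.22% of its length under S2P in KO and 0.509% in WT. The highest GATA2 summit of Smarca2, 8.7 kb into the gene, had 121 fragments in KO and 95 in WT. Smarca2 thus carried peaks of both factors and almost no S2P.

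The SWI/SNF gene with the most GATA2 peaks was Arid1b. It encodes a BAF subunit that is exclusive of its paralog ARID1A within a complex. Arid1b (chr17:4994297-5347656) had 26 GATA2 peaks in KO and 20 in WT, 14 RUNX1 peaks in KO and 7 in WT, and 9.33% S2P coverage in KO and 8.84% in WT. With the KO list cut to the WT length its RUNX1 peaks were 8 in KO and 7 in WT. The strongest GATA2 summit of the whole set lay in Arid1b, 104 kb after a start (peak at chr17:5099123-5099796 in KO), with 279 fragments in KO (95% Poisson interval 247 to 314) and 275 in WT (243 to 309). RUNX1 had 141 fragments at the same place in KO and 116 in WT. Arid1a (chr4:133679008-133756769) had 15 GATA2 peaks in KO and 12 in WT, 8 RUNX1 peaks in each, and 96.9% S2P coverage in KO and 95.7% in WT. At its start GATA2 had 181 fragments in KO and 143 in WT, and RUNX1 had 107 in KO and 57 in WT, a log2 ratio of 0.88 (0.41 to 1.37) after division by the lowest background of each list. Both paralogs had many peaks of both factors, and their S2P coverage lay far apart.

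Pbrm1, which encodes the bromodomain subunit BAF180 of PBAF (chr14:31019138-31121592), had 12 GATA2 peaks in KO and 11 in WT and 5 RUNX1 peaks in each genotype, with 53.5% S2P coverage in KO and 51.1% in WT. Inside another protein-coding gene lay 5 of these GATA2 peaks in KO and 4 in WT, and 3 of the RUNX1 peaks in each genotype. One site 60 kb into Pbrm1 (RUNX1 peak at chr14:31079350-31079782 in KO) was higher in KO for both factors. RUNX1 had 138 fragments there in KO and 65 in WT (log2 ratio 1.06, 0.63 to 1.51), and GATA2 had 76 in KO and 33 in WT (1.12, 0.51 to 1.75). A GATA2 site near the 3′ end of the gene had 62 fragments in KO and 25 in WT (1.23, 0.53 to 1.96). The other PBAF genes varied. Arid2 had 10 GATA2 peaks in KO and 6 in WT and 5 RUNX1 peaks in KO and 6 in WT. Of its RUNX1 peaks, 2 in KO and 3 in WT lay inside another protein-coding gene. S2P covered 59.3% of Arid2 in KO and 57.4% in WT. Phf10 had 5 GATA2 peaks in KO and 6 in WT, 7 RUNX1 peaks in KO and 3 in WT, and one of its RUNX1 sites had 51 fragments in KO and 24 in WT (1.06, 0.34 to 1.83). Its S2P coverage was 59.3% in KO and 48.7% in WT. Brd7 had 4 GATA2 peaks in KO and 2 in WT and 6 RUNX1 peaks in KO and 2 in WT, with 92.3% S2P coverage in KO and 92.0% in WT.

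Among the core and accessory subunits, Smarcc1, a scaffold subunit, had 12 GATA2 peaks in KO and 9 in WT, 5 RUNX1 peaks in KO and 4 in WT, and 61.4% S2P coverage in KO and 53.1% in WT. It also held the 1 GATA2 site over 1.5-fold lower in KO whose interval lay below 0, 28 fragments in KO and 53 in WT (log2 ratio −1.01, −1.72 to −0.32). Its paralog Smarcc2 had 1 GATA2 peak in each genotype and 3 RUNX1 peaks in KO and 1 in WT. The RUNX1 peak in WT lay in the flank beyond the gene end. Smarcb1 had 3 GATA2 peaks in KO and 1 in WT, and the shared one had 122 fragments in KO and 66 in WT (0.80, 0.36 to 1.26). S2P covered 27.8% of Smarcb1 in KO and 27.5% in WT. Smarcd1 had 1 peak of each factor in each genotype, and S2P covered 15.4% of it in KO and 8.05% in WT. Its GATA2 summit, in the flank beyond the gene end, had 102 fragments in KO and 53 in WT (0.86, 0.37 to 1.37). The RUNX1 summit of Smarcd1 had 35 in KO and 21 in WT (0.71, −0.11 to 1.57). Smarce1, the HMG-box subunit, went both ways for RUNX1: the site in the gene had 94 fragments in KO and 46 in WT (1.01, 0.48 to 1.55), and one beyond the lower end had 23 in KO and 43 in WT (−0.93, −1.72 to −0.16). It had 5 GATA2 peaks in KO and 4 in WT and 65.6% S2P coverage in KO and 68.5% in WT. Smarcd3, which belongs to heart and muscle forms of the complex, had no GATA2 and no RUNX1 peak in any list. Its S2P coverage was 15.6% in KO and 10.7% in WT. With Smarcd3 split into a first, middle and last part of equal length, only the last held S2P (46.9% in KO, 32.0% in WT). The start of the Smarcd3 promoter window, chr5:24602002, lies inside this last part, so a transcript from there would lie within it. The 5 kb after the gene end had 86.5% in KO and 86.0% in WT. Brd9, a bromodomain subunit of non-canonical BAF, was the 1 gene with GATA2 in WT alone (2.9% of all genes), 1 summit of 25 fragments with none in KO, beside 1 RUNX1 peak in KO and 2 in WT and S2P coverage of 4.49% in KO and 7.59% in WT. Across the remaining SWI/SNF genes (Smarcd2, Actl6a and Dpf2), GATA2 peaks numbered 1 to 4 in each genotype, and RUNX1 peaks 2 to 3 in KO and 1 to 2 in WT. S2P covered 43.3% of Smarcd2 in KO and 44.3% in WT, 66.8% of Actl6a in KO and 72.2% in WT, and 36.3% of Dpf2 in KO and 30.6% in WT.

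The ISWI genes included the gene with the most peaks of both factors, Baz2b. Smarca5, the widely expressed ISWI ATPase (chr8:80699943-80739459), had 9 GATA2 peaks in KO and 6 in WT, 2 RUNX1 peaks in each, and 66.4% S2P coverage in both genotypes. Its strongest GATA2 summit, 19.8 kb into the gene, had 149 fragments in KO and 93 in WT (log2 ratio 0.59, 0.21 to 0.98). Smarca1, the other ISWI ATPase gene (chrX:47809370-47892613), had no peak of GATA2, RUNX1 or S2P in any list, the 1 gene of the set with none. Baz2b, a bromodomain partner of ISWI, had 34 GATA2 peaks in KO and 29 in WT and 18 RUNX1 peaks in KO and 14 in WT, with only 4.33% S2P coverage in KO and 2.91% in WT. Its strongest GATA2 summit had 260 fragments in KO and 257 in WT. Of its shared RUNX1 sites, 2 were higher in KO, with 126 fragments in KO and 81 in WT (0.61, 0.20 to 1.03) and 41 in KO and 25 in WT (0.69, −0.06 to 1.47), and 1 was lower, with 19 in KO and 31 in WT (−0.73, −1.64 to 0.14).

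Baz1a, the ACF subunit, had 24 GATA2 peaks in KO and 20 in WT, 10 RUNX1 peaks in KO and 3 in WT, and 72.6% S2P coverage in both. Of the 10 RUNX1 peaks in KO, 7 had no WT counterpart, at 24 to 43 fragments. Baz1b, the WSTF subunit on chromosome 5, had 5 GATA2 peaks in KO and 3 in WT and 3 RUNX1 peaks in KO and 1 in WT, with 92.4% S2P coverage in KO and 92.9% in WT. The RUNX1 summit at its start had 191 fragments in KO (95% Poisson interval 165 to 220) and 136 in WT (114 to 161), and a GATA2 site in the gene had 73 in KO and 36 in WT (log2 ratio 0.93, 0.34 to 1.55). Bptf, the large NURF subunit, had 7 GATA2 peaks in KO and 6 in WT and 4 RUNX1 peaks in KO and 1 in WT, with 31.1% S2P coverage in KO and 26.1% in WT. Rsf1, a histone-binding partner of SMARCA5, had 7 GATA2 peaks in KO and 5 in WT and 5 RUNX1 peaks in KO and 3 in WT. One of these RUNX1 sites, in the flank, had 92 fragments in KO and 54 in WT (0.74, 0.24 to 1.26). S2P covered 29.2% of Rsf1 in KO and 29.0% in WT. Baz2a, of the nucleolar complex NoRC, had 9 GATA2 peaks in KO and 7 in WT, 7 RUNX1 peaks in each genotype and S2P coverage of 51.8% in KO and 43.3% in WT.

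The genes of the INO80 and SWR1 type had the same number of RUNX1 peaks in both genotypes, gene by gene: 3 at Ino80, 2 at Srcap, 2 at Ep400 and 1 at each of Ruvbl1 and Ruvbl2. Ino80, the ATPase of its complex (chr2:119373042-119478685), had 7 GATA2 peaks in each genotype and 57.8% S2P coverage in KO and 54.4% in WT. Of its 3 RUNX1 sites, 2 were over 1.5-fold higher in KO, with 36 fragments in KO and 21 in WT (log2 ratio 0.75, −0.06 to 1.60) and 26 in KO and 16 in WT (0.68, −0.28 to 1.67). Srcap, the ATPase that deposits H2A.Z, had 4 GATA2 peaks in each genotype and 70.0% S2P coverage in KO and 67.3% in WT. Ep400, its TIP60-linked relative on chromosome 5 (chr5:110664373-110770927), had 19 GATA2 peaks in KO and 14 in WT and 65.1% S2P coverage in KO and 64.8% in WT. The strongest GATA2 summit of Ep400 had 234 fragments in KO and 170 in WT, and the RUNX1 summit at its start had 155 in KO and 99 in WT (0.62, 0.25 to 1.00). The helicase genes Ruvbl1 and Ruvbl2 were well covered by S2P, Ruvbl1 at 49.98% in KO and 52.6% in WT and Ruvbl2 at 78.3% in KO and 82.0% in WT. Ruvbl2 had no GATA2 peak in either genotype, while Ruvbl1 had 2 in KO and 3 in WT.

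Hells and Atrx were the 2 genes of the set with RUNX1 peaks in KO alone (3.99% of all genes), with 1 peak at Hells and 4 at Atrx. With the KO RUNX1 list cut to the WT length, 1 peak remained at Hells and 2 at Atrx. Both carried GATA2 in both genotypes, 6 peaks at Hells in each and 8 at Atrx in KO against 6 in WT. Their S2P coverage differed from each other more than between genotypes: Hells had 94.5% in both, and Atrx 26.1% in KO and 21.2% in WT.

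The NuRD genes had RUNX1 in all 8 cases in both genotypes, and 4 of the 5 strongest RUNX1 summits in KO were theirs. Hdac2 had 221 fragments in KO (95% Poisson interval 193 to 252) and 201 in WT (174 to 231). Gatad2a, which encodes one of the p66 subunits of NuRD, had 217 fragments in KO (189 to 248) and 199 in WT (172 to 229). Hdac1 had 208 fragments in KO (181 to 238) and 168 in WT (144 to 195), and Gatad2b 198 in KO (171 to 228) and 192 in WT (166 to 221). Each of these summits lay within 1 kb of a start and none overlapped a GATA2 peak. For each of the 4 genes the KO and WT intervals overlapped. S2P coverage was 15.2% in KO and 8.42% in WT at Hdac2, 55.1% in KO and 56.2% in WT at Gatad2a, 43.4% in KO and 48.0% in WT at Hdac1, and 43.2% in KO and 41.7% in WT at Gatad2b. Hdac2, with the highest RUNX1 summit, had the lowest S2P coverage of the 4.

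GATA2 was unevenly spread over the NuRD genes. Hdac1 had no GATA2 peak in any list, and Hdac2 had 2 in KO, of 28 and 10 fragments, and none in WT, the 1 gene with GATA2 in KO alone (7.35% of all genes). The larger of these, 20.8 kb after the start, coincided with a RUNX1 peak of 14 fragments that KO alone had. Mta3, on the other hand, had 21 GATA2 peaks in KO and 18 in WT and 12 RUNX1 peaks in KO and 8 in WT, with 25.5% S2P coverage in KO and 17.8% in WT. It held the largest GATA2 difference of the set, 73 fragments in KO and 27 in WT (log2 ratio 1.35, 0.69 to 2.04; peak at chr17:83745956-83746287 in KO), at a place where RUNX1 had 34 fragments in KO and no WT peak. Mta1 had 1 GATA2 peak in each genotype, of 265 fragments in KO and 259 in WT, and 5 RUNX1 peaks in KO and 2 in WT. Mta2 had 6 GATA2 and 5 RUNX1 peaks in each genotype, and its strongest GATA2 summit had 245 fragments in both, with 87.0% S2P coverage in KO and 88.6% in WT. Gatad2a and Gatad2b each had 10 GATA2 peaks in KO and 7 in WT, with one site at Gatad2a of 64 fragments in KO and 31 in WT (0.96, 0.32 to 1.63) and one at Gatad2b of 29 in KO and 12 in WT (1.19, 0.17 to 2.29). Mbd3, a NuRD subunit of the methyl-binding-domain family, had 2 GATA2 peaks in KO and 1 in WT and 3 RUNX1 peaks in each. S2P covered 86.8% of Mbd3 in KO and 85.2% in WT.

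Most WT peaks had a counterpart in KO. Of the GATA2 peaks at the set, 219 of 309 in KO (70.9%, 95% exact binomial interval 65.5 to 75.9) and 219 of 247 in WT (88.7%, 84.0 to 92.3) overlapped a peak of the other genotype by at least 1 bp, against 68.8% of all GATA2 peaks in KO and 81.5% in WT. For RUNX1 it was 105 of 172 in KO (61.0%, 53.3 to 68.4) and 107 of 121 in WT (88.4%, 81.3 to 93.5), against 69.6% of all RUNX1 peaks in KO and 86.6% in WT. The peaks without a counterpart were low: GATA2 had medians of 17 fragments in KO and 15 in WT, against 37 in KO and 28 in WT for shared peaks, and RUNX1 had medians of 23 in KO and 19 in WT, against 49 in KO and 43 in WT for shared peaks. Of the unshared RUNX1 peaks, 23 of 67 in KO and 1 of 14 in WT lay within 1 kb of a start, against 27.3% of all unshared RUNX1 peaks in KO and 10.2% in WT. RUNX1 overlapped GATA2 at 66 of its 172 peaks in KO (38.4%, 31.1 to 46.1) and at 54 of 121 in WT (44.6%, 35.6 to 53.9), against 52.4% of all RUNX1 peaks in KO and 53.9% in WT. Of the 67 RUNX1 peaks of KO without a WT counterpart, 48 overlapped GATA2 in neither genotype (56% of all such peaks), 14 in both (34.1%), 3 in KO alone (8.67%) and 2 in WT alone (1.22%).

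Summits that overlapped 1 to 1 were on the whole somewhat higher in KO. At the set, 216 GATA2 sites had a median log2 ratio of 0.24 after division by the lowest background of each list, against 0.11 over all 53508 shared GATA2 sites, and 160 of the 216 (74.1%) were above 0, against 60.8% of all. At least 1.5-fold higher in KO were 35 of them (13.8% of all shared sites), and 5 were lower by that much (6.59%). The higher sites fell in 23 genes, at log2 ratios of 0.59 to 1.35, and the lower ones in 5 (Smarce1, Smarcc1, Ruvbl1, Arid1b and Baz2b), at −1.09 to −0.59. For RUNX1 the median of 101 sites was 0.20, against 0.19 over all 23560. Of these 101, 71 (70.3%) were above 0, against 70.8% of all, and 15 were higher (14.8% of all), in 12 genes, and 2 lower (4.58%), at Smarce1 and Baz2b. Centred on the median of all shared sites, GATA2 had 24 sites higher (9.44% of all) and 10 lower (9.4%), and RUNX1 had 5 higher (6.86%) and 8 lower (8.86%), so that the balance of RUNX1 turned. With the deposited fold enrichments in place of fragments, RUNX1 had 26 higher (20.9%) and 11 lower (9.48%). The counting intervals of 22 GATA2 sites lay above 0 (9.32% of all shared sites) and of 3 below it (3.55%), and those of 11 RUNX1 sites above (15%) and of 1 below (2.85%). Sites on chromosome 5 stood apart over the whole lists, with medians of 0.46 for GATA2 and 0.56 for RUNX1. The set had 17 GATA2 sites there, at Ep400 and Baz1b, with a median of 0.49 and all above 0, as were 85.7% of all GATA2 sites on chromosome 5, and without them the median was 0.22, against 0.09 over all sites off chromosome 5. What sets the level of chromosome 5 was not tested. The values of Ep400 and Baz1b above are to be read beside that of their chromosome.

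**Figure D3:**
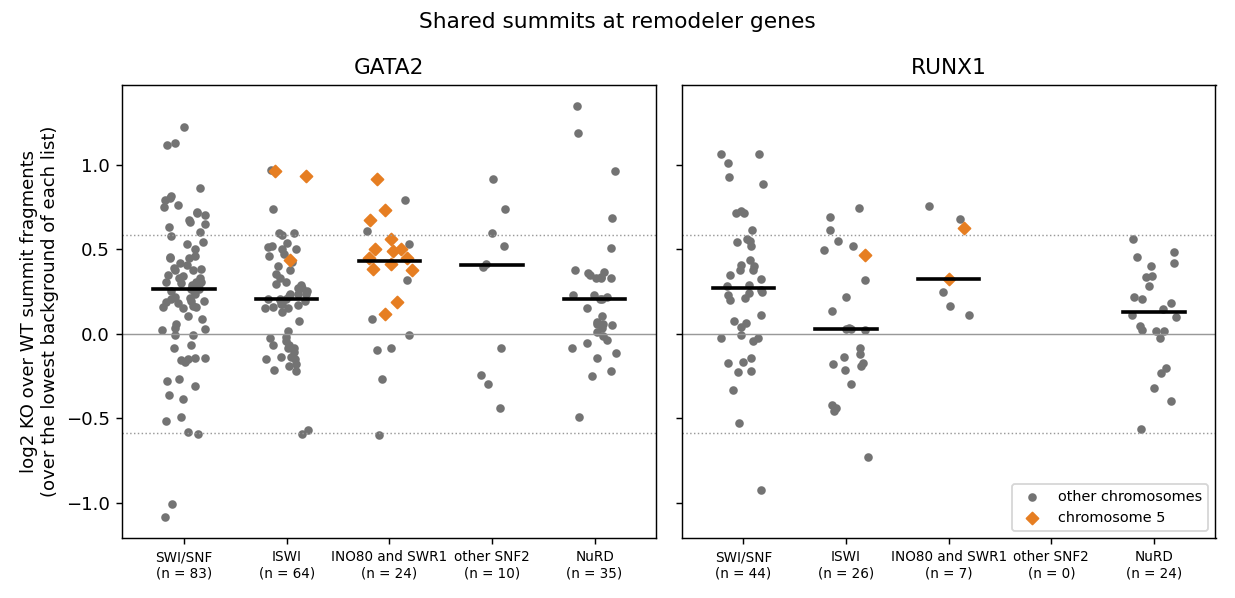
Log2 ratio of KO over WT summit fragments at each shared site of GATA2 (left) and RUNX1 (right), by complex, with the median as a bar, sites on chromosome 5 as orange diamonds and dotted lines at 1.5-fold in either direction. The 17 GATA2 sites on chromosome 5 are all above 0, and sites of the other chromosomes lie on both sides of 0 with more above it.

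The elongating polymerase covered the remodeler genes well. At least 50% of the gene lay under S2P peaks in 23 of the 41 genes in KO and in 22 in WT, 21 of them in both, against 16.2% of all protein-coding genes in KO and 15.8% in WT. The median coverage was 55.1% in KO and 52.6% in WT, against 0% over all genes in both. Covered in KO alone were Baz2a (51.8% in KO, 43.3% in WT) and Phf10 (59.3% in KO, 48.7% in WT), and in WT alone Ruvbl1 (49.98% in KO, 52.6% in WT). Of the ATPase genes, Smarca4, Smarca5, Ino80, Srcap, Ep400 and Hells were above 50% in both genotypes, and Smarca2, Smarca1 and Atrx below it in both. Fewer cells with elongating polymerase and less polymerase per cell cannot be told apart in these bulk lists, nor can the 2 strands.

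Coverage differed little between genotypes. A difference of 10 points or more was found at 3 genes: Mta1 was higher in KO (83.9% in KO, 72.0% in WT) and so was Phf10, against 5.76% of all genes with S2P. Smarcc2 was lower in KO (56.0% in KO, 66.8% in WT), against 3.91% of all such genes. Centred on the median difference of all genes, 1 gene was higher by that much (Mta1) and 1 lower. The median difference over the 40 genes with S2P was 0.93 points, against 0.67 over all genes, and 27 of the 40 were higher in KO by any amount (61% of all genes with S2P). S2P increased along the genes, as is usual for this form of the polymerase. In the 34 genes with S2P and a strand, the median coverage of the first, the middle and the last part of the gene, split into parts of equal length, and of the 5 kb after its end was 37.6%, 56.4%, 76.9% and 84.4% in KO and 36.1%, 55.7%, 70.8% and 85.3% in WT. Over all genes with S2P it was 10.7%, 23.3%, 51.3% and 56.6% in KO and 12.0%, 20.2%, 45.2% and 53.8% in WT. Genes covered by S2P in both genotypes, chosen by this same coverage, had 60.9%, 86.3%, 96.2% and 83.3% in KO. In WT they had 63.8%, 85.2%, 94.4% and 80.9%. The remodeler genes among them had 57.1%, 72.4%, 88.4% and 92.1% in KO and 57.0%, 66.6%, 86.2% and 88.35% in WT. The last part was above the first in 30 of the 34 genes in KO and in 30 in WT, against 77.5% of all genes in KO and 74.2% in WT. In Mta1 the difference was widest in the middle part, with 68.9% in KO and 44.1% in WT, beside 93.5% in KO and 79.6% in WT in the last part, and in Smarcc2 it was widest in the first part, with 36.3% in KO and 52.8% in WT.

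**Figure D4:**
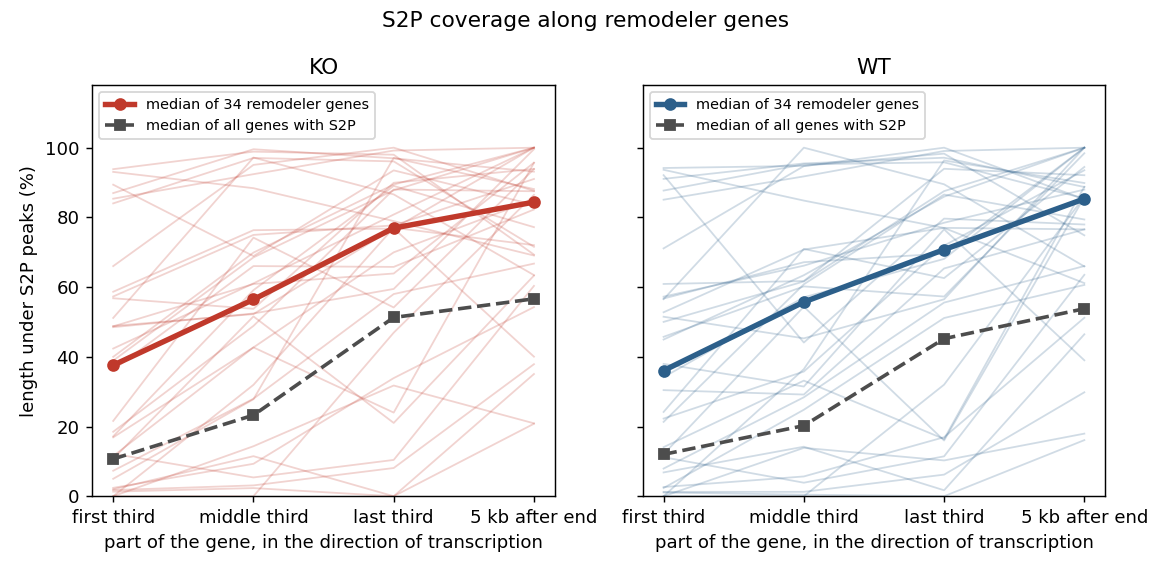
Percent of length under S2P peaks in the first, middle and last part of the gene, of equal length, and in the 5 kb after its end, for 34 remodeler genes (thin lines), their median (thick line) and the median of all genes with S2P (dashed), KO on the left and WT on the right. The remodeler median climbs to 84.4% in KO and 85.3% in WT after the gene end and lies above that of all genes with S2P at every point.

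The other remodeler subunits and SNF2 genes outside the CHD family, a list of 49, were described in the same way. RUNX1 lay at 49 of the 49 in KO and at 46 in WT, within 1 kb of a start in 46 in KO and 44 in WT, and GATA2 lay at 45 in KO and 43 in WT. Their peak ratios of KO over WT were 1.31 for GATA2 and 1.22 for RUNX1, and 19 in KO and 17 in WT had at least 50% of their length under S2P. Beside these, the 41 genes had ratios of 1.25 for GATA2 and 1.42 for RUNX1, and 23 in KO and 22 in WT were covered by S2P. No test of the difference between the lists was possible.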

How the data were processed

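ChIP-seq peak lists of GATA2, RUNX1 and S2P in KO and WT G1ER cells were used; 8 immunoprecipitated samples lay behind the 6 lists, and no values of the 6 input samples were analysed here. Bowtie2 2.2.1, MACS2 2.1.0 and the builds GRCm38 and mm10 are named in the submitters' processing notes, without roles or settings. Each deposited list has the narrowPeak layout with no header, so its columns were checked on their values. In each deposited list the score equals 10 × (−log10 q) without its decimals. The fold enrichment the authors deposited is the ratio of summit pileup to local background from the peak caller. The −log10 p and −log10 q the authors deposited are the caller's values per peak. All GATA2 and RUNX1 peaks gave a whole number of summit fragments from fold and −log10 p under a Poisson model (100% within 0.005 of the deposited −log10 p). The recovery was tested on simulated data.

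Gene limits were taken from the RefSeq table (GRCm38.p6), and all 41 symbols matched. Shared peaks overlap by at least 1 bp; 1 to 1 pairs gave the log2 ratio of fragments over the lowest background of each list, which stands for depth (1.57 in KO and 1.48 in WT for GATA2, 1.39 in KO and 1.37 in WT for RUNX1). The lists held a median of 24 fragments per summit in KO and 23 in WT for GATA2, and of 37 in KO and 38 in WT for RUNX1, so counting intervals are wide. Intervals are Poisson for fragments, exact binomial for shares and conditional binomial for ratios, and cover counting error only. They treat fragments as independent, which PCR copies, where these were kept, are not. Calls were set at 1.5-fold, 10 points of S2P coverage and 50% coverage. No test between genotypes was run, as each side had 1 list. S2P coverage was compared only for genes of at least 2 kb with S2P in a list.

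All 41 genes were named by role, with values in every list for ATPases, genes with peaks in 1 genotype or none, the strongest summits, sites and coverage past the calls, and chromosome 5. The members and lists were chosen with earlier results of these data known. The gene's 5′ end was added to the starts, and TGCGGT to the motifs, after values were seen. Python 3.11.15, numpy 2.4.6, pandas 2.3.3, scipy 1.17.1 and matplotlib 3.10.9 were used. Alternatives covered the flank, q limit, list length, overlap rule, chromosome 5, assignment, scaling, thresholds and starts.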

Additional observations from a re-analysis of the deposited data

How the results depend on the processing

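Of 172 values recomputed under another setting, 141 stayed within 1.5 times (counts) or within the counting interval (shares and medians), 31 moved, and no median changed sign. Without flanks, WT had 79 RUNX1 peaks, 54.4% of them with GATA2, GATA2 had 3 lower sites, and RUNX1 had 9 higher and 1 lower. With peaks of −log10 q of at least 5, 2 genes had lower S2P coverage. With equal list lengths, 78.5% of KO GATA2 peaks were shared, and 72.7% of KO and 81.0% of WT RUNX1 peaks. With summits within 100 bp, 83.8% of WT GATA2 and 78.5% of WT RUNX1 peaks were shared. With the deposited fold enrichments, 61 GATA2 sites were higher and 10 lower, and 26 RUNX1 sites higher and 11 lower. Centred on the median of all sites or genes, the median log2 ratio was 0.13 for GATA2, with 10 lower sites, and 0.013 for RUNX1, with 5 sites higher and 8 lower, against 15 higher and 2 lower without centring, so that the balance turned. Centring also left 1 gene with higher S2P coverage. A 2-fold call left 5 GATA2 sites higher and 2 lower, and 3 RUNX1 sites higher and 0 lower. Coverage of at least 75% was found at 8 genes in KO and 7 in WT. A call at 5 points gave 9 genes higher and 2 lower in S2P coverage, and one at 20 points gave 0 genes higher and 0 lower. Apart from these settings' own construction, the cause of each move was not tested. With starts from the promoter windows alone, an alternative chosen after seeing the data, RUNX1 lay at a start in 36 genes in KO and 29 in WT.

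No paired analysis was possible because each list stands alone or, for S2P, is 1 list for both numbered replicates. Leaving out a replicate was not run, for the same reason. The lists keep only peaks past the caller's limit and give no value below it. Counting error is wide at low summits: a GATA2 site at Atrx with 24 fragments in KO and 15 in WT had a log2 ratio of 0.59 with an interval of −0.40 to 1.63.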
